A study of Mus musculus with 4 samples.

Results

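Macrophages of the kidney were studied through nuclei that carried their RNA and little RNA of the proximal tubule or the endothelium. Of 39074 barcodes in 4 single-nucleus libraries, 38481 held at least 200 genes and at most 10% mitochondrial UMIs (unique molecular identifiers, each marking 1 captured RNA molecule). The nuclei were chosen by their own UMI counts: at least 2 of the 10 genes C1qa, C1qb, C1qc, Csf1r, Adgre1, Cd68, Lyz2, Ctss, Cx3cr1 and Mrc1 had to be detected. A chosen nucleus also held at most 2 UMIs summed over the proximal tubule genes Slc34a1, Lrp2, Cubn and Slc27a2, and at most 1 UMI summed over the endothelial genes Flt1 and Emcn. These limits left 324 nuclei, or 0.842% of the nuclei kept, with 142940 UMIs in all.

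The libraries came from the kidney cortex of female mice, and the series asks how macrophages bear on mesangial cells in lupus nephritis. An iodixanol gradient separated the nuclei, and their polyadenylated RNA was read at its 3' end. MRL/lpr mice, in which the lpr allele disables Fas and a lupus-like kidney disease follows, were used at 6 and at 10 weeks of age. C57BL/6 mice of those 2 ages were the comparison, and the labels give them no mutation or treatment. Each strain and age had 1 library, so no difference below has a replicate check, no test was run and no p-value is given. An MRL group with normal Fas was not analysed here, so the Fas mutation, other strain differences and disease cannot be told apart. Values are given in the order MRL/lpr 6 weeks, C57BL/6 6 weeks, MRL/lpr 10 weeks and C57BL/6 10 weeks, unless the libraries are named. Ranges in parentheses after a ratio are 95% intervals for counting error alone, and CPM are UMIs scaled to a total of 1000000.

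Kidney macrophages lie in the interstitium between the tubules, where they take up debris and immune complexes and make the complement component C1q. They show peptides to helper T cells on MHC class II molecules, which the invariant chain Cd74 holds until lysosomal proteases cut it and the H2-DM proteins load a peptide. Macrophages of the nephritic kidney are known both as long-lived resident cells and as cells that arrive from blood monocytes, which carry Ccr2 and much Lyz2.

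The choice removed many nuclei with macrophage RNA, and it did so unevenly. In the 4 libraries 148, 111, 184 and 170 nuclei had at least 2 of the 10 genes, which is 1.58%, 1.11%, 1.94% and 1.77% of the nuclei kept. Of these, 97, 41, 59 and 66 were above the limit on tubule RNA, so that 65.5% of such nuclei were lost in the 6-week MRL/lpr library and 32.1% to 38.8% in the other 3. The lost nuclei held a median of 1772, 1293, 1235 and 1658 UMIs, and the chosen nuclei a median of only 421, 367, 319 and 302. Chosen nuclei were thus shallow in every library, and deepest in the 6-week MRL/lpr library.

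The share of chosen nuclei was higher at 10 weeks than at 6 weeks in both strains. MRL/lpr gave 44 nuclei (0.470%, exact binomial interval 0.342% to 0.630%) at 6 weeks and 121 nuclei (1.28%, exact binomial interval 1.06% to 1.52%) at 10 weeks. C57BL/6 gave 64 nuclei (0.639%, exact binomial interval 0.493% to 0.816%) at 6 weeks and 95 nuclei (0.988%, exact binomial interval 0.80% to 1.21%) at 10 weeks. The ratio of 10 over 6 weeks was 2.71 (1.91–3.92) in MRL/lpr and 1.55 (1.11–2.16) in C57BL/6. Between the strains, MRL/lpr over C57BL/6 was 0.735 (0.489–1.10) at 6 weeks and 1.29 (0.978–1.71) at 10 weeks, and both intervals hold 1.

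These ratios moved with the depth of the libraries and with the limit on tubule RNA. The lowest barcode had 308 UMIs in the 6-week MRL/lpr library and 209, 175 and 228 in the others. With 308 UMIs as the minimum everywhere, 10 over 6 weeks was 1.74 (1.18–2.59) in MRL/lpr and 1.15 (0.731–1.81) in C57BL/6, whose interval then held 1. MRL/lpr over C57BL/6 was then 1.04 (0.659–1.64) at 6 weeks and 1.57 (1.07–2.34) at 10 weeks. Without the limit on tubule RNA the 6-week ratio was 1.33 (1.00–1.76), on the other side of 1 from the chosen nuclei, and the 10-week ratio 1.21 (0.964–1.52). Without that limit, 10 over 6 weeks was 1.45 (1.15–1.85) in MRL/lpr and 1.60 (1.23–2.09) in C57BL/6. Among all nuclei with at least 2 of the 10 genes it was 1.23 (0.983–1.53) and 1.59 (1.25–2.04), so that the MRL/lpr interval held 1.

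**Figure D1:**
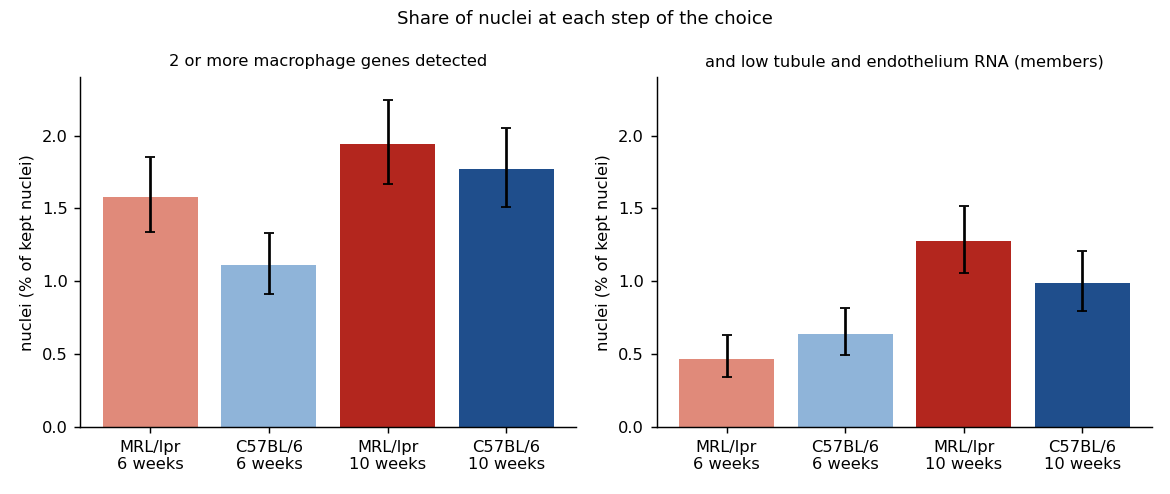
Share of kept nuclei, in percent, with at least 2 of the 10 macrophage genes (left) and after the limits on tubule and endothelium RNA (right). Bars are single libraries and error bars are exact binomial 95% intervals; the 6-week MRL/lpr library goes from 1.58% to 0.470%.

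The genes that chose the nuclei are given as a description, since their presence was required. C1qa, a chain of C1q, had 114, 116, 262 and 157 UMIs, or 4658, 3689, 5290 and 4187 CPM. It was detected in 86.4%, 78.1%, 77.7% and 75.8% of the chosen nuclei. In nuclei picked for proximal tubule RNA, which should lack it, the shares were 2.31%, 1.17%, 1.08% and 1.44% at median depths of 880, 949, 812 and 933.5 UMIs. Among the 44, 41, 75 and 49 chosen nuclei deep enough to be thinned to 300 UMIs, C1qa was left in 72.7%, 63.4%, 62.7% and 61.2%. At least 1 UMI of any C1q gene was seen in 43, 60, 107 and 89 chosen nuclei.

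Csf1r, the receptor of the macrophage growth factor CSF1, had 8, 21, 27 and 39 UMIs, or 327, 668, 545 and 1040 CPM. Adgre1, which encodes the F4/80 antigen, had 8, 16, 20 and 40 UMIs, or 327, 509, 404 and 1067 CPM. Among the chosen nuclei both of these defining markers had a lower level in MRL/lpr than in C57BL/6 of the same age. The ratios were 0.489 (0.187–1.15) and 0.524 (0.309–0.878) for Csf1r, and 0.642 (0.238–1.59) and 0.379 (0.210–0.663) for Adgre1. Both 6-week intervals held 1. Any 2 of the 10 genes admit a nucleus, so the level of 1 of them also depends on which others admitted it. These ratios are therefore descriptions only.

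Lyz2, lysozyme, went the other way, with the same limit as a gene of the choice. It had 64, 38, 285 and 75 UMIs, or 2615, 1208, 5755 and 2000 CPM, in 22, 23, 76 and 37 nuclei. MRL/lpr over C57BL/6 was 2.16 (1.43–3.32) at 6 weeks and 2.88 (2.22–3.76) at 10 weeks. Without the limit on tubule RNA the 6-week ratio was 1.30 (0.921–1.88), and its interval held 1. Nuclei with at least 5 Lyz2 UMIs numbered 4, 0, 14 and 2, or 9.09%, 0%, 11.6% and 2.11% of the chosen nuclei. The 10-week MRL/lpr library held most of these Lyz2-rich nuclei, but it also held the most chosen nuclei. Its share was close to that of the 6-week MRL/lpr library, and its richest nucleus had 35 UMIs. Thinned to 300 UMIs, Lyz2 was left in 34.1%, 24.4%, 58.7% and 34.7% of nuclei, against an unthinned 50.0%, 35.9%, 62.8% and 38.9% here and 0.956%, 0.333%, 1.17% and 0.642% in proximal tubule nuclei.

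Of the remaining genes of the choice, Ctss, the protease that trims the invariant chain, had 70, 43, 114 and 67 UMIs. Mrc1, the mannose receptor, had 3, 11, 18 and 12 and the lysosomal glycoprotein gene Cd68 4, 13, 34 and 12. Cx3cr1, the fractalkine receptor, had 6, 6, 29 and 21. C1qb had 68, 94, 144 and 105 UMIs and C1qc 97, 72, 157 and 78, and MRL/lpr over C57BL/6 was 1.73 (1.26–2.38) and 1.52 (1.15–2.03) for C1qc but 0.929 (0.670–1.28) and 1.04 (0.802–1.35) for C1qb.

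Macrophage RNA near the limits was followed with an identity list of 28 genes, none of which is a gene of the choice. They summed to 8168, 7045, 15977 and 10935 CPM in the 10, 13, 25 and 18 chosen nuclei with exactly 2 of the 10 genes. In those with 3 or more they summed to 32344, 25077, 33670 and 33855 CPM. Nuclei that met the other limits but had exactly 1 of the genes stood just outside, at 2109, 2916, 2354 and 2645 CPM. With 3 or 4 UMIs of tubule genes, just over that limit, the list stood at 16424, 2650, 13445 and 10101 CPM in 8, 3, 7 and 1 nuclei. Chosen nuclei with 1 or 2 such UMIs stood at 19743, 14388, 28140 and 28381 CPM and those with 0 at 26703, 23562, 30086 and 28239 CPM, so that in the 10-week C57BL/6 library these 2 kinds hardly differed.

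Genes that the choice did not use also stood far above their level in all other nuclei of the same library. Among the 188 other genes with at least 10 UMIs in the chosen nuclei of every library, 76 were at least 2-fold higher there in all 4. The leading gene was Cd72, a receptor of B cells and macrophages, with 858, 668, 788 and 1040 CPM against 7.33, 3.39, 4.74 and 7.45 CPM in the other nuclei. Tyrobp, the adaptor that carries signals of myeloid receptors, had 981, 1145, 1555 and 1307 CPM against 9.04, 9.29, 11.5 and 11.0 CPM.

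Next in order were Cybb, the catalytic subunit of the phagocyte NADPH oxidase, the leukocyte gene Lst1, the class II genes H2-Eb1 and H2-Aa, and Fcer1g, the common gamma chain of Fc receptors. In the library where it was smallest, the ratio to other nuclei was 108 for Cybb, 105 for Lst1, 93.4 for H2-Aa and 90.4 for Fcer1g. Ptprc (the leukocyte antigen CD45), Laptm5, Runx1 and Ctsc were among the first 20. Of the identity list, which holds no gene of the choice, 21 of the 23 genes that reached 20 UMIs in sum were above other nuclei in all 4. Apoe, its richest gene, had 312, 325, 736 and 508 UMIs.

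**Figure D2:**
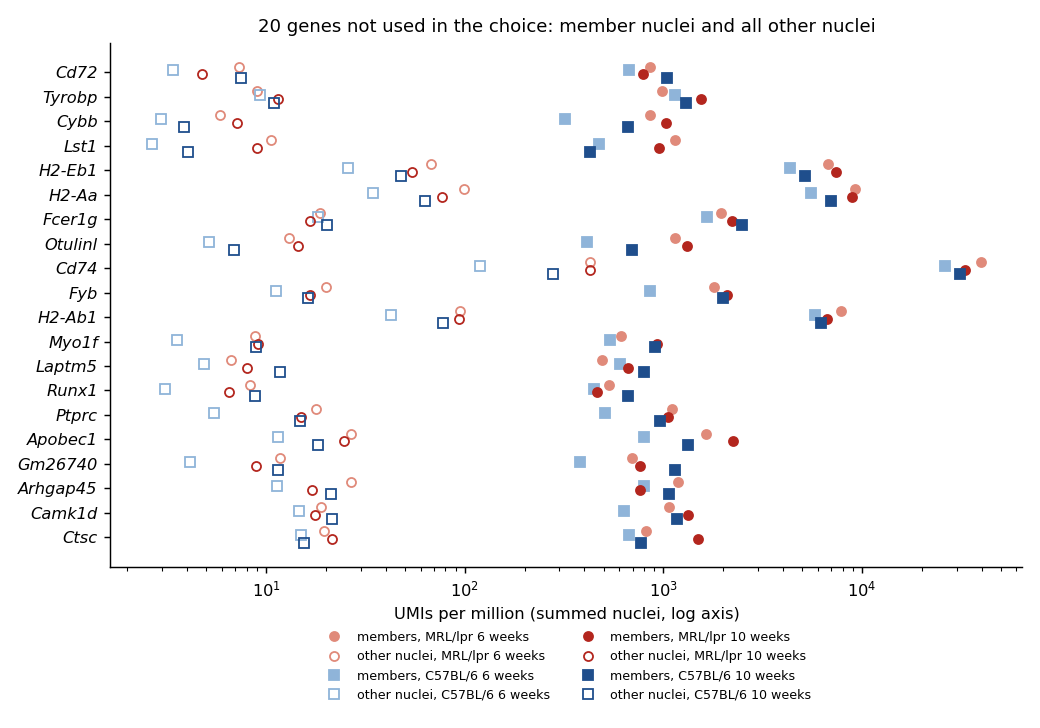
The 20 genes not used in the choice with the highest ratio to other nuclei, in UMIs scaled to 1000000, on a log axis. Filled points are the chosen nuclei and open points all other nuclei of the same library, and in every line the filled points lie to the right of the open ones; Cd72 has a ratio of at least 117 in each library.

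The nuclei were not free of tubule RNA, although little of it was proximal. The 16 genes of a proximal tubule list summed to 64, 49, 89 and 55 UMIs. An 8-gene list of the distal convoluted and connecting tubule summed to 200, 683, 151 and 542 UMIs, or 8173, 21721, 3049 and 14453 CPM, against 6904, 10725, 6856 and 11624 CPM in all other nuclei. C57BL/6 nuclei thus held more distal tubule RNA than MRL/lpr nuclei of the same age, and more than the other nuclei of their own libraries. The thick ascending limb list summed to 58, 226, 59 and 30 UMIs, highest in the 6-week C57BL/6 library.

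At least 2 markers of 1 nephron list were detected in 21, 29, 32 and 30 nuclei, which is 47.7%, 45.3%, 26.4% and 31.6%. Leaving these out kept 23, 35, 89 and 65 nuclei, and values in this narrower set, chosen after seeing the data, are given beside the lists and most of the genes below. In it the distal tubule list summed to 12, 18, 44 and 36 UMIs. The share of nuclei at 10 over 6 weeks was then 3.82 (2.39–6.33) in MRL/lpr and 1.93 (1.26–3.00) in C57BL/6.

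Markers of other immune cells were sparse. The 15-gene T cell list summed to 2, 5, 12 and 7 UMIs and the 12-gene dendritic cell list to 12, 16, 16 and 17, and 3, 4, 0 and 4 nuclei had at least 2 markers of 1 lymphoid or dendritic list. The 14-gene monocyte list summed to 14, 15, 39 and 24 UMIs. Ccr2, the receptor that draws monocytes from blood, made up 10, 9, 16 and 18 of them. The 8 natural killer cell markers gave 3, 0, 12 and 0 UMIs, all of them from Klrk1, a receptor also found on T cells.

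The 8-gene plasma cell list gave 13, 9, 76 and 16 UMIs. Its Igkc, the kappa light chain, had 7, 0, 40 and 0 UMIs in 1, 0, 3 and 0 nuclei, and a single nucleus of the 10-week MRL/lpr library held 32. No barcode of a chosen nucleus in 1 library was that of a chosen nucleus in another, although pairs of libraries shared 112 to 143 barcodes in all. Fas, the mutated gene, was too rare in these nuclei to check the labels, with 0, 3, 5 and 3 UMIs.

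Among 1628 genes that reached 20 UMIs over the 4 libraries, few differed between the strains in 1 direction at both ages. Higher in MRL/lpr by 2-fold or more at 6 and at 10 weeks were 43 genes (2.64%), and lower by as much were 50 (3.07%). A further 52 genes differed that much with opposite signs, more than in either agreeing group. A gene with 0 UMIs in a library was set at 3 UMIs there, so that its fold is a bound. With the genes of the choice left out, 5 of 42 higher genes and 10 of 50 lower ones were at least 2-fold above other nuclei in all 4 libraries, against 20.9% of all such genes compared. The 5 were Lst1, Mgl2, Pla2g7, H2-T23 and Nav1, the last of which was named after its values were seen. A gene with 0 UMIs in the chosen nuclei of any library, such as H2-Ea or Igkc, could not be among them.

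MHC class II genes were higher in MRL/lpr as a group, and promoters of this family are shown first. Class II promoters are known for a shared module that includes a Y box, bound by the factor NF-Y and written here as ATTGG or, on the opposite strand, CCAAT. The RefSeq promoter table (build GRCm38.p6) held 5 of the 9 listed genes. The 150 bases just before the annotated start are printed for 3 of them, 5' to 3' on the coding strand, because these genes lay in 1 direction at both ages and hold the letters. Capitals mark the Y box letters. H2-Aa is at chr17:34287824-34287973 on the minus strand, H2-Eb1 at chr17:34305717-34305866 and H2-DMb1 at chr17:34153041-34153190, both on the plus strand.
H2-Aa: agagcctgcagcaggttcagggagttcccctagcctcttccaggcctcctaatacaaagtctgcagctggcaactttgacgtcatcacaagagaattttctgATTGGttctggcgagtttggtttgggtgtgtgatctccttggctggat
H2-Eb1: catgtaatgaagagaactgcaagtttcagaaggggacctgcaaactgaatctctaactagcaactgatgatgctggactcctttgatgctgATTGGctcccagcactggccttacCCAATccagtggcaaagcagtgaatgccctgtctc
H2-DMb1: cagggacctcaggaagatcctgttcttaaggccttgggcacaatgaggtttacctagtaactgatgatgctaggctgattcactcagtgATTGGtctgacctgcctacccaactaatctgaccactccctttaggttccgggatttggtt
The first match begins 48 bases before the start in H2-Aa, 59 in H2-Eb1 and 61 in H2-DMb1, and H2-Eb1 holds a second, on the other strand, at 35. Among all 32851 promoters of the table, 24.5% hold these letters in the same 150 bases, and H2-DMa does not. A match describes letters only, since no binding was measured.

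All 8 class II genes that reached 20 UMIs stood higher in MRL/lpr than in C57BL/6 at each age. Their median log2 ratios were 0.61 and 0.52, against -0.05 and -0.08 over all 1628 genes. The 8 genes and these medians include H2-Ea, which was seen only in MRL/lpr and reached 20 UMIs through that strain alone. Its direction was thus fixed by the minimum and adds nothing to the count. Cd74, the invariant chain, had 973, 826, 1628 and 1164 UMIs, or 39760, 26269, 32874 and 31039 CPM, highest in the 6-week MRL/lpr library and lowest in the 6-week C57BL/6 library. MRL/lpr over C57BL/6 was 1.51 (1.38–1.66) at 6 weeks and 1.06 (0.982–1.14) at 10 weeks.

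H2-Aa, the alpha chain of the A molecule, had 226, 175, 440 and 261 UMIs, or 9235, 5565, 8885 and 6960 CPM, with ratios of 1.66 (1.36–2.03) and 1.28 (1.09–1.49). H2-Eb1, the beta chain of the E molecule, had 165, 137, 366 and 194 UMIs, or 6742, 4357, 7391 and 5173 CPM, with ratios of 1.55 (1.23–1.96) and 1.43 (1.20–1.71). For both genes each MRL/lpr library was above each C57BL/6 library. H2-Ab1, the beta chain of A, had 192, 182, 332 and 234 UMIs and smaller ratios, 1.36 (1.10–1.67) and 1.07 (0.906–1.28).

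H2-Ea, the alpha chain of E, was detected in MRL/lpr and not in C57BL/6, with 12, 0, 11 and 0 UMIs in 9, 0, 9 and 0 nuclei. It was at 0 in the other nuclei of both C57BL/6 libraries as well, against 5.63 and 5.21 CPM in the other MRL/lpr nuclei. Mice of the b haplotype of the H2 locus, C57BL/6 among them, are known to lack a working H2-Ea gene. The excess in MRL/lpr was at least 5.14-fold in the younger pair and at least 2.78-fold in the older.

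Among the genes of peptide loading, H2-DMb1 had 31, 24, 51 and 27 UMIs and H2-DMa 16, 14, 27 and 8. The ratios were 1.66 (0.943–2.96) and 1.43 (0.880–2.37) for H2-DMb1, and 1.47 (0.672–3.25) and 2.56 (1.13–6.51) for H2-DMa. Ciita, the factor that switches class II genes on, had 5, 5, 23 and 9 UMIs, with ratios of 1.28 (0.296–5.58) and 1.94 (0.863–4.75). At these counts most of the intervals hold 1.

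Summed over the 9 genes, class II RNA stood at 66198, 43347, 58155 and 50585 CPM. MRL/lpr over C57BL/6 was 1.53 (1.42–1.64) at 6 weeks and 1.15 (1.08–1.22) at 10 weeks. With age the sum went to 0.878 (0.826–0.934) in MRL/lpr and 1.17 (1.09–1.25) in C57BL/6, but in the narrower set it was lower at 10 weeks in both, at 0.723 (0.669–0.782) and 0.843 (0.773–0.918). Between the strains the macrophage identity list was also higher, at 1.19 (1.06–1.33) and 1.05 (0.968–1.14), while the distal tubule list was lower, at 0.376 (0.320–0.441) and 0.211 (0.175–0.253). The part of either list in the class II ratios was not tested beyond the sets that follow.

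In the nuclei without 2 nephron markers the class II ratios were 1.28 (1.17–1.41) and 1.10 (1.03–1.18), and 4 of 7 genes were higher at both ages and 0 lower. With nuclei above the tubule limit included, the 6-week ratio was 0.887 (0.838–0.939), below 1, and the 10-week ratio 1.37 (1.31–1.44). In the nuclei with macrophage genes that were above the tubule limit, class II RNA stood at 11405, 9190, 9233 and 7993 CPM. The 6-week direction thus turned when the limit on tubule RNA was lifted, and the 10-week direction did not.

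**Figure D3:**
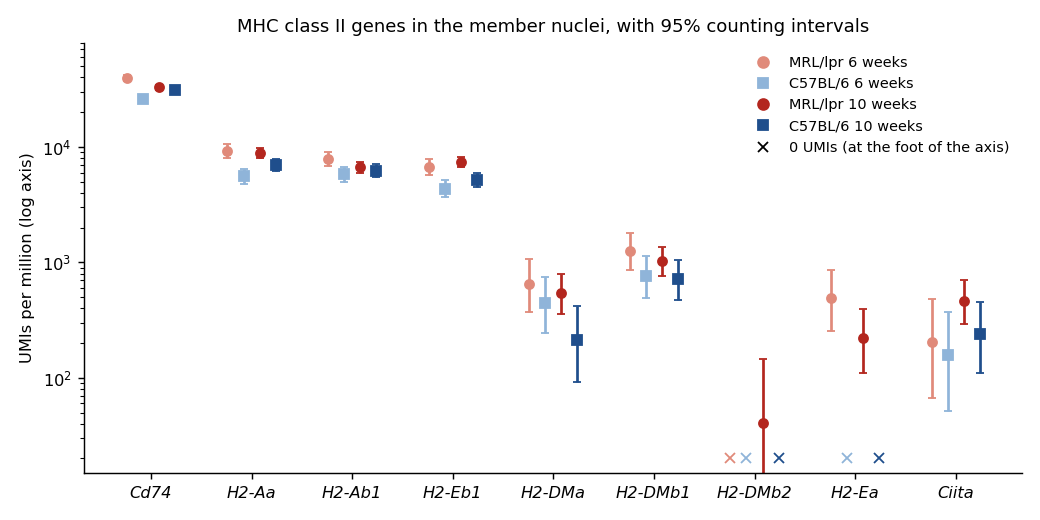
UMIs of the 9 MHC class II genes in the chosen nuclei of each library, scaled to 1000000, on a log axis with exact Poisson 95% intervals. Crosses mark 0 UMIs; red circles (MRL/lpr) lie above blue squares (C57BL/6) of the same age for 8 of the genes, and H2-Ea has crosses in both C57BL/6 libraries.

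Lst1, a small leukocyte protein encoded in the MHC region, was higher in both MRL/lpr libraries than in both C57BL/6 libraries. It had 28, 15, 47 and 16 UMIs in 22, 14, 35 and 16 nuclei, or 1144, 477, 949 and 427 CPM. The ratios were 2.4 (1.24–4.83) and 2.22 (1.24–4.20), and in the narrower set 2.25 and 2.57. With the tubule limit lifted the 6-week ratio was 1.39 (0.818–2.45), below 2-fold, and the 10-week ratio 2.83 (1.77–4.65).

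Pla2g7 encodes the enzyme that degrades platelet-activating factor. It had 20, 7, 17 and 5 UMIs, with ratios of 3.67 (1.49–10.3) and 2.57 (0.912–8.93). H2-T23, which encodes the nonclassical class I molecule Qa-1, had 13, 6, 35 and 6 UMIs, with ratios of 2.78 (0.987–8.93) and 4.42 (1.84–12.8). Mgl2, a C-type lectin of macrophages and dendritic cells, had 15, 9, 27 and 10 UMIs, with ratios of 2.14 (0.878–5.55) and 2.04 (0.959–4.73). These 3 genes were named because they were at least 2-fold higher at both ages, but at 1 age or both the interval held 1. The ratios in the narrower set were 4.46 and 2.18 for Pla2g7, 3.27 and 4.17 for H2-T23 and 2.68 and 1.53 for Mgl2. Without the limit on tubule RNA the 6-week ratios were 1.56, 1.27 and 0.624 in the same order, so none of the 3 was then 2-fold higher at that age.

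Cacna1a, a calcium channel subunit best known from neurons, had 16, 2, 45 and 0 UMIs in 12, 2, 32 and 0 nuclei. Its level was 654, 63.6, 909 and 0 CPM against 13.9, 20.5, 16.4 and 15.2 CPM in all other nuclei, so only the MRL/lpr macrophage nuclei stood far above the rest of their library. The ratio was 10.3 (2.42–92.2) at 6 weeks, and the excess at 10 weeks was at least 11.4-fold. Its bounds in the narrower set were 3.17-fold and 8.22-fold.

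The gene ranked first in the same direction, Colec12, was not richer here than in the other nuclei. Colec12, a scavenger receptor, had 96, 1, 125 and 0 UMIs, or 3923, 31.8, 2524 and 0 CPM, against 6764, 77.2, 5288 and 34.7 CPM in all other nuclei. The strain ratio was 123 (21.6–4922) at 6 weeks, and the excess at 10 weeks was at least 31.6-fold. Because the same gap between the strains was present in all other nuclei, this ratio is no feature of the chosen ones alone.

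Magi2, a scaffold protein of podocytes and neurons, had 43, 11, 52 and 9 UMIs, of which single nuclei held 25 at 6 weeks and 30 at 10 weeks in MRL/lpr. Igkc, too, came mostly from single nuclei. The lysosomal sulfatase gene Arsb had 9, 0, 17 and 2 UMIs, and Rnaset2a, a lysosomal ribonuclease, 12, 3, 33 and 7. Immp2l and Car12, also ranked among the first 12 genes, had ratios between 2.04 and 4.28.

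Among the 12 genes ranked first as lower in MRL/lpr, Pid1 was a macrophage gene by its level in all 4 libraries, and Nlrp1b by its level in C57BL/6. Nlrp1b had too few UMIs in MRL/lpr to tell there, and reached the minimum of 20 UMIs almost wholly through C57BL/6. Nlrp1b, an inflammasome sensor, had 1, 19, 2 and 12 UMIs in 1, 15, 2 and 11 nuclei. The ratios were 0.0676 (0.00163–0.425) at 6 weeks and 0.126 (0.0137–0.567) at 10 weeks, and both C57BL/6 libraries were far above both MRL/lpr libraries. Pid1, an adaptor that binds the receptor LRP1, had 6, 27, 22 and 50 UMIs, with ratios of 0.286 (0.0964–0.706) and 0.333 (0.192–0.560).

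Wfdc17, a small secreted protein of activated macrophages, had 0, 13, 5 and 18 UMIs. At 6 weeks it was at least 3.37-fold lower in MRL/lpr, and the ratio at 10 weeks was 0.210 (0.0610–0.588). Foxn3, a forkhead transcription factor, had 14, 43, 36 and 64 UMIs, with ratios of 0.418 (0.211–0.780) and 0.426 (0.275–0.651). In the narrower set Nlrp1b stood at 0.0849 and 0.0660, Pid1 at 0.25 and 0.290 and Foxn3 at 0.357 and 0.344, so these 3 were about as low without the nephron-marked nuclei. Without the limit on tubule RNA the 10-week ratios of Pid1 and Foxn3 were 0.691 and 0.672.

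Most of the others ranked as lower in MRL/lpr belong to the distal nephron. Slc12a3, the thiazide-sensitive sodium chloride cotransporter, had 38, 184, 30 and 87 UMIs in 4, 16, 7 and 13 nuclei. Slc8a1, the sodium calcium exchanger, had 100, 362, 91 and 353 UMIs, and S100g, a calcium-binding protein of the distal tubule, 12, 52, 12 and 60. All 6 genes of the distal tubule list with at least 20 UMIs were lower in MRL/lpr at both ages. Their median log2 ratios were -1.15 and -2.47, against -0.05 and -0.08 over all 1628 genes. The narrower set leaves nuclei out by such genes, Slc8a1 among them, so its values for them are no check.

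Also ranked there were Klhl3 and Ppp1r1a of the distal nephron, Pkhd1, the fibrocystin gene of tubule cilia, and Abca13. Sgms1, which makes sphingomyelin, had 0, 16, 2 and 9 UMIs and stood at 386, 334, 368 and 334 CPM in all other nuclei. None of these 5 was above other nuclei in all 4 libraries.

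**Figure D4:**
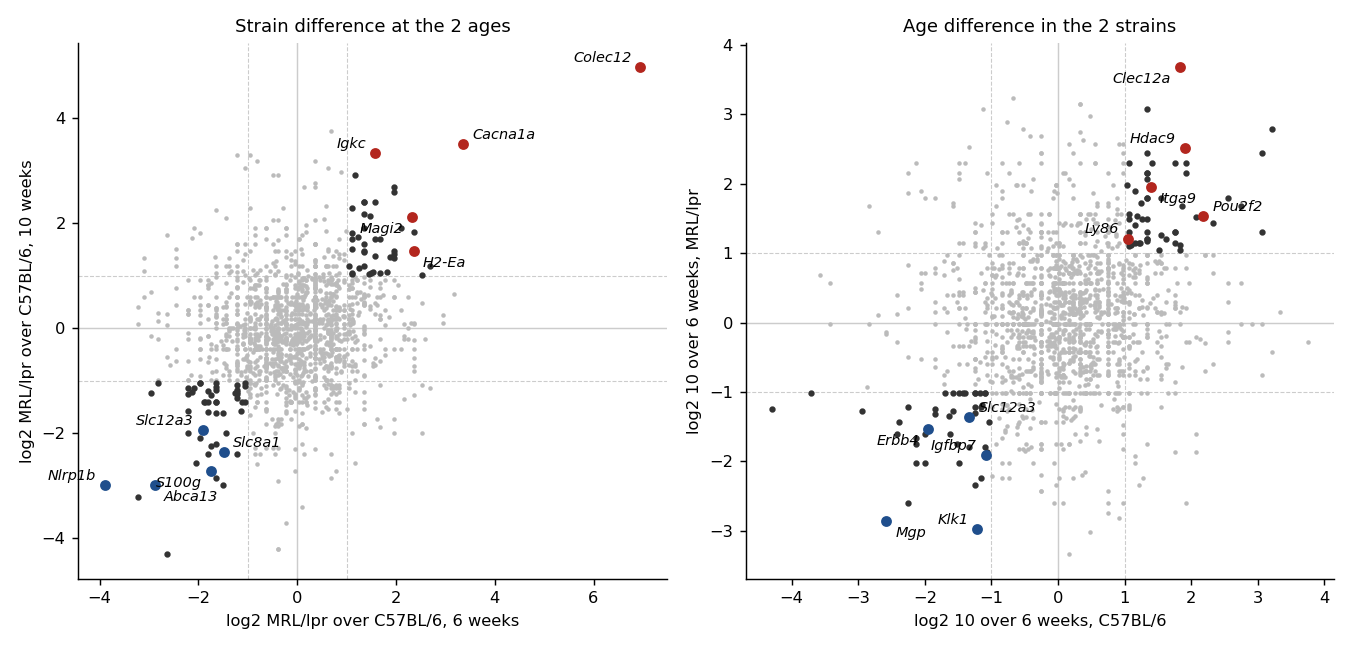
Log2 ratios of 1628 genes in the chosen nuclei, with the strain ratio at 6 against 10 weeks (left) and the age ratio in C57BL/6 against MRL/lpr (right). Dark points are at least 2-fold apart in the same direction on both axes, and the named points, the first 5 in each direction by the weaker interval bound, include Colec12 and Cacna1a at the upper right of the strain panel; genes with 0 UMIs in a library stand at their bound.

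Between the ages, 54 genes (3.32%) were at least 2-fold higher at 10 weeks in both strains and 44 (2.70%) at least 2-fold lower, while 47 were apart in opposite directions. Median log2 ratios over all 1628 genes were 0.12 in MRL/lpr and 0.09 in C57BL/6. Of the 54 higher genes 27 were at least 2-fold above other nuclei in all 4 libraries, and of the 44 lower genes 0 were. Without Cx3cr1, the gene of the choice among the 54, this was 26 of 53 genes (49.1%), against 20.9% of all genes compared. With age the distal tubule list went to 0.373 (0.300–0.463) in MRL/lpr and 0.665 (0.593–0.746) in C57BL/6, and the macrophage identity list to 1.19 (1.08–1.31) and 1.35 (1.22–1.49). The identity list in the narrower set stood at 0.941 (0.836–1.06) and 1.09 (0.960–1.23), and both intervals held 1.

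Pou2f2, the transcription factor OCT-2 of B cells and myeloid cells, had 6, 5, 35 and 27 UMIs in 5, 5, 26 and 20 nuclei, or 245, 159, 707 and 720 CPM. Both 10-week libraries were above both 6-week libraries. The ratio of 10 over 6 weeks was 2.88 (1.20–8.38) in MRL/lpr and 4.53 (1.72–15.1) in C57BL/6, and 3.97 and 4.68 in the narrower set. Hdac9, a histone deacetylase, had 2, 9, 23 and 40 UMIs, with ratios of 5.68 (1.40–49.7) and 3.73 (1.78–8.73), and 5.40 and 3.38 in the narrower set. Without the limit on tubule RNA the C57BL/6 ratios were 1.41 (0.769–2.70) for Pou2f2 and 1.58 (0.953–2.70) for Hdac9, and both intervals held 1.

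Clec12a, an inhibitory lectin of myeloid cells that binds uric acid crystals, had 1, 4, 26 and 17 UMIs. The ratios were 12.8 (2.11–527) and 3.56 (1.16–14.6). In the narrower set the MRL/lpr excess was at least 2.01-fold and the C57BL/6 ratio 2.60 (0.554–24.4). The last interval holds 1.

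Ly86, the MD-1 partner of the receptor RP105, had 9, 17, 42 and 42 UMIs, with ratios of 2.31 (1.11–5.39) and 2.07 (1.15–3.88). Itga9, an integrin alpha chain, had 5, 8, 39 and 25 UMIs and H2-Q4, a nonclassical class I gene, 5, 4, 29 and 20. These 3 genes were named because they were at least 2-fold higher at 10 weeks in both strains. In the narrower set the ratios in MRL/lpr and C57BL/6 were 2.46 and 1.19 for Ly86, 2.75 and 3.90 for Itga9 and 2.22 and 2.60 for H2-Q4, so the C57BL/6 excess of Ly86 was small there. With the tubule limit lifted the C57BL/6 ratio of Itga9 was 1.03. Unc93b1, which brings nucleic acid receptors to the endosome, had 13, 23, 62 and 50 UMIs, with ratios of 2.36 (1.28–4.67) and 1.82 (1.09–3.13).

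Cx3cr1, a chemokine receptor and also a gene of the choice, had ratios of 10 over 6 weeks of 2.39 (0.974–7.04) in MRL/lpr and 2.93 (1.15–8.89) in C57BL/6. In the narrower set they were 1.11 and 3.12, so the MRL/lpr excess was small there. The chemokine list holds Cx3cr1. Summed over this list, 10 over 6 weeks was 2.08 (1.53–2.86) in MRL/lpr and 1.32 (0.985–1.79) in C57BL/6. In the narrower set the sums gave 1.48 (1.04–2.18) and 1.23 (0.823–1.87).

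Ccl12, a chemokine that draws monocytes, was high in the 10-week MRL/lpr library alone. It had 7, 8, 33 and 7 UMIs in 4, 4, 17 and 4 nuclei, and MRL/lpr over C57BL/6 was 1.12 (0.347–3.55) at 6 weeks and 3.57 (1.55–9.56) at 10 weeks. Whether the ages differ in this ratio was not tested. Of growth factors, Tgfb1, which drives matrix formation, had 2, 5, 17 and 15 UMIs and Pdgfb, which acts on mesangial cells, 1, 3, 9 and 9.

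The 6 genes ranked first as lower at 10 weeks were genes of tubule, vessel and stroma. Klk1, tissue kallikrein of the connecting tubule, had 43, 97, 11 and 50 UMIs and Slc12a3 the values given above. Erbb4 had 20, 39, 14 and 12, and Ank3, an anchor of membrane proteins, 33, 51, 33 and 27. Mgp, the matrix Gla protein, had 18, 10, 5 and 2 UMIs, of which 1 nucleus of the 6-week MRL/lpr library held 15. Igfbp7 had 39, 39, 21 and 22, and its C57BL/6 ratio turned to 1.35 in the narrower set.

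Lysosomal RNA was higher at 10 weeks among all chosen nuclei. Of 17 compared, 9 were higher in both strains and 0 lower in both, but 0 by 2-fold in both. The list's ratio of 10 over 6 weeks was 1.55 (1.33–1.81) in MRL/lpr and 1.20 (1.02–1.41) in C57BL/6. Its median log2 ratios were 0.57 and 0.27, against 0.12 and 0.09 over all 1628 genes. The narrower set gave ratios of 1.25 (1.02–1.54) and 1.02 (0.823–1.26), and of 15 genes 7 were higher and 3 lower in both strains, so that C57BL/6 then showed little difference. Psap, the precursor of the saposins, had 50, 52, 150 and 78 UMIs, and the cathepsin gene Ctsb 31, 27, 87 and 47.

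MHC class I and peptide loading RNA was also higher at 10 weeks, at 1.33 (1.14–1.55) in MRL/lpr and 1.75 (1.49–2.06) in C57BL/6. Of its 10 genes compared, 5 were higher in both strains and 2 lower. The median log2 ratios were 0.41 and 0.78, against 0.12 and 0.09 over all 1628 genes. H2-K1, a classical class I heavy chain, had 31, 38, 112 and 85 UMIs. In the narrower set the ratios were 1.06 (0.867–1.31) and 1.44 (1.17–1.79), with 3 genes higher and 2 lower in both strains, so that the MRL/lpr interval held 1. Between the strains the list stood at 1.28 (1.06–1.55) at 6 weeks and 0.974 (0.862–1.10) at 10 weeks, so that its later interval held 1.

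Fc and complement receptors stood at 1.06 (0.811–1.38) and 0.846 (0.703–1.02) for MRL/lpr over C57BL/6, and both intervals hold 1. The sensor list, which holds Nlrp1b, stood at 0.526 (0.323–0.834) and 0.802 (0.605–1.06). The scavenging list stood at 1.89 (1.48–2.41) and 1.52 (1.26–1.84) in sum, but 96 of its 169 UMIs at 6 weeks and 125 of its 331 at 10 weeks in MRL/lpr were Colec12. Of its 12 genes compared, 1 was higher at both ages and 4 lower, and the median log2 ratios were -0.64 and -0.08, against the sign of the sum. Over all 1628 genes the medians were -0.05 and -0.08.

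Interferon genes were too rare to describe singly at this depth. Of 26 type I interferon genes 2 reached 20 UMIs, and of 23 interferon gamma genes 2. The type I list summed to 28, 54, 60 and 44 UMIs, with strain ratios of 0.666 (0.406–1.07) and 1.03 (0.688–1.56). The gamma list summed to 27, 36, 71 and 48 UMIs, with ratios of 0.964 (0.563–1.63) and 1.12 (0.766–1.65). A difference between the strains was not detectable in either list, and 3 UMIs, at which a count of 0 was set, correspond to 123, 95.4, 60.6 and 80.0 CPM.

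**Figure D5:**
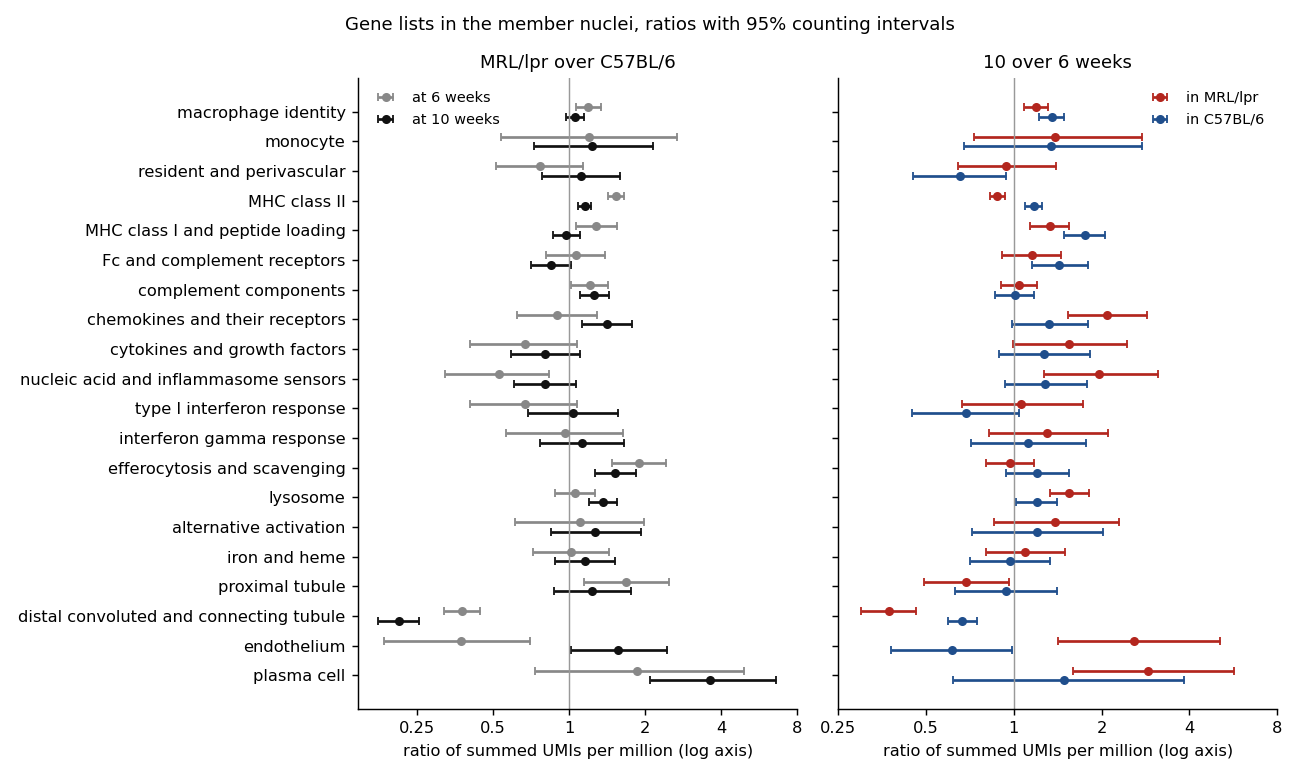
Ratios of summed UMIs for 20 gene lists in the chosen nuclei, each scaled to its library's total, with 95% counting intervals on a log axis, for MRL/lpr over C57BL/6 (left) and 10 over 6 weeks (right). MHC class II lies above 1 at both ages on the left, at 1.53 and 1.15, and the distal tubule list far below 1, at 0.376 and 0.211. Some lists hold genes of the choice: C1qa, C1qb and C1qc in complement components, Cx3cr1 in chemokines and Mrc1 in alternative activation.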

How the data were processed

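Each deposited file holds raw UMI counts per gene and barcode for 1 library, made by the authors with Cell Ranger (5.0.0 per the file headers, 3.1.0 per the submitters' processing notes). The build, the annotation and the treatment of intronic reads were not given in the sources used here. The barcodes had already been called. Libraries held 6466973 to 7660682 UMIs over 25636 genes, and intervals cover counting error only. Free RNA was not removed.

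The members and gene lists were chosen with earlier results of these data known. Raw counts were summed over the chosen nuclei of each library and scaled to CPM. A gene was compared when the 4 sums held at least 20 UMIs, and called when at least 2-fold apart in 1 direction in both comparisons. A count of 0 stood at 3 UMIs, and no fold is given when both counts are at most 3. Intervals are conditional exact for ratios, exact Poisson for levels and exact binomial for shares. The share of all genes in 1 direction without a fold limit was not counted, so such counts of list genes are descriptions only.

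Named are the genes of the choice, the 4 richest genes of each list and those called in it, the first 12 genes in each direction between strains and 6 between ages by the weaker interval bound, the 20 with the highest lowest-library ratio to other nuclei, and Fas. Not every gene so named is described, and 1 is not reported here. Doublets were kept in the reported values. As an alternative they were marked with Scrublet (scanpy 1.11.5), whose automatic threshold marked 0 nuclei of the 6-week MRL/lpr library, so the top scores at the expected rate were taken. Only the calls between strains and the ratio intervals were tried on simulated data. The simulated counts were independent, so they lack the gathering of UMIs in single nuclei seen for genes such as Igkc and Magi2. Python 3.11.15, numpy 2.4.6, scipy 1.17.1 and pandas 2.3.3 were used.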

Additional observations from a re-analysis of the deposited data

Results flagged for a closer look

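An effect is listed here when it pointed one way in one strain or age and the opposite way in the other. With 1 library per group these differences were not tested. The share of chosen nuclei in MRL/lpr over C57BL/6 was below 1 at 6 weeks and above 1 at 10 weeks, and the later ratio was 1.76 times the earlier one. Opposite directions of at least 2-fold were seen for 52 genes between the strains and for 47 genes between the ages.

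For some lists both counting intervals excluded 1 on opposite sides. The class II sum at 10 over 6 weeks was 0.878 (0.826–0.934) in MRL/lpr and 1.17 (1.09–1.25) in C57BL/6, and the former was 0.750 times the latter. Without nephron-marked nuclei both were below 1, at 0.723 (0.669–0.782) and 0.843 (0.773–0.918). The strain ratio of the proliferation list, with 1, 10, 26 and 5 UMIs, was 30.8 times as high at 10 as at 6 weeks. Without nephron-marked nuclei this list had 1, 2, 13 and 3 UMIs. Its strain ratios were then 0.595 (0.0101–11.4) and 3.14 (0.864–17.2), and both intervals held 1. For the collecting duct principal cell list, with 50, 28, 31 and 52 UMIs, the strain ratio at 10 weeks was 0.197 times that at 6 weeks. Leaving out nephron-marked nuclei, which are marked by such genes among others, left 3, 0, 1 and 1 UMIs of this list. The endothelium list, with 13, 45, 68 and 33 UMIs, gave a factor of 4.20 for strain and for age. With 1 library per strain and age these are the same quantity, so their match is no further observation. Without nephron-marked nuclei its strain ratios were 0.297 (0.0994–0.747) at 6 weeks and 1.09 (0.632–1.91) at 10 weeks, and the later interval held 1.

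Pf4, platelet factor 4, which some tissue macrophages also make, had 1, 11, 10 and 3 UMIs in 1, 10, 9 and 3 nuclei. Its log2 strain ratio was 4.44 higher at 10 than at 6 weeks. The log2 age ratio was 4.43 higher in MRL/lpr than in C57BL/6, which is the same quantity up to rounding. Irf1, a transcription factor induced by interferon, had 1, 4, 18 and 6 UMIs, and its log2 strain ratio was 2.82 higher at 10 weeks. Eng, endoglin, had 4, 11, 17 and 6 UMIs and differed by 2.20, again the same quantity for strain and for age. Among nephron genes the log2 strain ratio differed by 3.03 for Slc12a1, -2.09 for Fxyd4 and -3.51 for Aqp2. The log2 age ratio differed by 3.63 for Kcnj1 and, as the same quantity, by -3.51 for Aqp2.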

How the results depend on the processing

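The 36 values that moved, and the 1 that turned, among 96 values for shares, gene counts and class II sums are given here. Of the other 59, the share of nuclei in MRL/lpr over C57BL/6 at 6 weeks crossed 1, to 1.04 at 1 minimum of 308 UMIs, while its interval held 1 in both cases. The cause was not tested in any case. The counts of genes higher in MRL/lpr, lower in MRL/lpr, higher at 10 weeks and lower at 10 weeks, each by 2-fold or more, were 43, 50, 54 and 44. They became 111, 125, 105 and 78 without the limit on tubule RNA and 78, 96, 101 and 88 with no minimum of UMIs. Of the genes called among the chosen nuclei only 6, 10, 10 and 2 were also called without the limit on tubule RNA. They became 10, 9, 11 and 10 at a minimum of 50 UMIs, and 11, 14, 9 and 13 when the interval also had to exclude 1; both rules leave fewer genes to call. With 3 or more of the 10 genes required, 25 were higher in MRL/lpr and 22 lower at 10 weeks. Without any tubule UMI, 25 were higher and 28 lower at 10 weeks. Genes lower at 10 weeks numbered 23 at 1 minimum of 308 UMIs and 29 without Scrublet doublets. The following were chosen after seeing the data: without nuclei holding nephron markers the counts were 15, 14, 22 and 11, with 7, 9, 8 and 3 genes shared, and without each gene's richest nucleus 21 genes were lower at 10 weeks.

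The share of nuclei without the tubule limit was 1.33 for MRL/lpr over C57BL/6 at 6 weeks and 1.45 for 10 over 6 weeks in MRL/lpr, and the latter was 1.74 at 1 minimum of 308 UMIs. The class II ratio was 1.70 and 1.06 with 3 or more genes required, 0.887 and 1.37 without the tubule limit, and at 6 weeks 1.99 at 308 UMIs, 1.42 without Scrublet doublets and 1.28 without nephron-marked nuclei. Of 652 single-gene ratios for 43 genes, 69 moved outside their counting interval without turning, 23 of them without the tubule limit and 16 without nephron-marked nuclei, and 14 turned. With 3 or more genes required, 10 over 6 weeks in MRL/lpr was 4.13 for Slc12a3, 1.18 for Erbb4 and 1.23 for Ank3. Without any tubule UMI, Magi2 was 0.893 between strains at 10 weeks. Without the tubule limit the strain ratios at 6 weeks were 0.991 for Igkc, 0.908 for Immp2l, 0.624 for Mgl2 and 0.574 for Ctsl, those at 10 weeks 0.996 for Car12 and 1.17 for Sgms1, and Slc12a3 was 1.73 with age in MRL/lpr. Without nephron-marked nuclei, a set that itself leaves out nuclei with Slc8a1, Slc8a1 was 1.45 and 1.09 between strains, and Igfbp7 1.35 with age in C57BL/6. Shallow nuclei and 1 library per group limit all values. No paired analysis was possible because each group has 1 library.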

Other observations

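Resident macrophage genes showed no clear difference between the strains. The 12-gene resident and perivascular list summed to 43, 72, 82 and 56 UMIs, or 1757, 2290, 1656 and 1493 CPM, with MRL/lpr over C57BL/6 at 0.767 (0.513–1.13) at 6 weeks and 1.11 (0.780–1.59) at 10 weeks. Nuclei with Mrc1 or Cd163, genes of perivascular macrophages, numbered 3, 10, 16 and 10, or 6.82%, 15.6%, 13.2% and 10.5% of the chosen nuclei. Nuclei with Ccr2, Ly6c2 or Plac8, genes of monocytes, numbered 8, 6, 17 and 15, or 18.2%, 9.38%, 14.0% and 15.8%.

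Nuclei without any C1q UMI numbered 1, 4, 14 and 6, and those with Lyz2 but no C1q 1, 3, 10 and 2. Most nuclei of either kind were in the 10-week MRL/lpr library, which also held the most chosen nuclei. The 12 proliferation genes gave 1, 10, 26 and 5 UMIs in 1, 6, 17 and 5 nuclei. The iron and heme list summed to 62, 78, 137 and 90 UMIs, with strain ratios of 1.02 (0.720–1.44) and 1.15 (0.877–1.52).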
